A study of Homo sapiens with 12 samples.

Results

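Tetraspanins are small membrane proteins with 4 transmembrane segments that gather integrins, receptors and enzymes into patches of the plasma membrane or of vesicles. The genes described here are CD37 and 5 relatives, CD53, CD9, CD63, CD82 and CD151, picked by symbol from the gene list of a single-cell RNA-seq experiment on Nalm-6, a human cell line of B-cell precursor acute lymphoblastic leukemia. They are 6 of 33 tetraspanin genes and of 57905 genes in the files. CD37 and CD53 are restricted largely to leukocytes, and CD37 marks mature B cells and is low in B-cell precursors. CD9, by contrast, is a surface marker of precursor B cells and platelets, CD63 resides in late endosomes and lysosomes and marks exosomes, and CD82 and CD151 are widely expressed partners of integrins.

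Each group was 1 library. The RUNX1-labelled library came from a stable Nalm-6 line carrying a Tet-On regulator and a lentiviral pLVX-Tight-Puro vector with RUNX1 cDNA, given 500 ng/ml doxycycline for 72 h. The control carries the genotype label of the empty vector and the time label 72 h. Its title names DMSO and no doxycycline is given for it, and the methods of the study describe Nalm-6 cells in DMSO that were collected at another time. The vector, the inducer, the solvent, the culture and possibly its length thus cannot be told apart from the RUNX1 label. Both were depleted of dead cells on beads, and both derive from the Nalm-6 line, which is a single leukemia. RUNX1 itself had 69.7 CPM (UMIs of a gene per 1000000 human UMIs of the same cells) in the control and 30.4 CPM in the RUNX1-labelled library, which goes against the label. The sources used here do not say whether the RUNX1 cDNA of the construct holds the 3′ end that the assay reads, so RNA of the construct may be missing from this count and induction cannot be read from it. After the cell filter, 5598 cells of the control and 4800 of the RUNX1-labelled library remained, with 75754137 and 75350615 human UMIs (molecules counted once), and 10 barcodes occurred in both. The median cell held 12505.5 UMIs in the control and 14805 in the RUNX1-labelled library, and mitochondrial UMIs took 9.45% and 13.1% of the totals. Of 14 markers of B-cell precursors, 14 reached 10 CPM in the control and 13 in the RUNX1-labelled library. Among the 14, 2 were at least 2-fold higher in the RUNX1-labelled library (VPREB1 and CD79A) and 2 at least 2-fold lower (DNTT and CD22). Of all genes that reached 10 CPM in at least 1 library, 5.18% were as much higher and 4.1% as much lower. Summed T cell markers were at 7.63 and 9.58 CPM, myeloid markers at 2.28 and 1.80 CPM, platelet markers at 1.11 and 2.56 CPM and erythroid markers at 0.0132 and 0.0133 CPM, with CD3D, PF4 and PPBP at 0 in both. The groups could not be tested against each other with 1 library each, and every interval is a 95% interval of counting error alone.

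CD37 was nearly absent from the control and present in the RUNX1-labelled library. CD37 (ENSG00000104894; GRCh37 chromosome 19, 49838428 to 49846592, plus strand) had 40 UMIs in the control, or 0.528 CPM (0.377 to 0.719), against 1733 UMIs and 23.0 CPM (21.9 to 24.1) in the RUNX1-labelled library. Its ratio was 43.6-fold, and by ratio it stood at place 27 of 7980 genes that reached 10 CPM in at least 1 library. Genes on the opposite strand overlap CD37, and they were close to 0. TEAD2 had 0 and 3 UMIs and CTC-301O7.4 had 1 and 12 UMIs in the control and the RUNX1-labelled library.

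CD53, the other leukocyte tetraspanin, was well expressed in both libraries. CD53 (ENSG00000143119; chromosome 1, 111413810 to 111442544, plus strand) was at 127 CPM (9650 UMIs) in the control and 174 CPM (13137 UMIs) in the RUNX1-labelled library, a log2 ratio of 0.45 (0.41 to 0.49). The RefSeq promoter table on GRCh38.p14 holds 4 of the 6 members, CD53, CD82, CD9 and CD63. Their 15 windows of 300 bases run from 250 bases before a start to 50 after it, and some windows of CD63 overlap. CD37 and CD151 have no window there, so their promoters were not searched. Both CD53 windows are shown, and they are on the plus strand. CD53 and CD37 shared the direction and the G1 pattern described below, as did CD63, whose windows are not shown. Capitals mark the searched letters on either strand: CAGGTG of the E-box, ATGCAAAT of the octamer bound by OCT factors, and GAGGAA or CCGGAA of ETS factors. The first window lies at chr1:110870960-110871259 and holds 1 octamer, in reverse, and 1 E-box.
CD53 first window: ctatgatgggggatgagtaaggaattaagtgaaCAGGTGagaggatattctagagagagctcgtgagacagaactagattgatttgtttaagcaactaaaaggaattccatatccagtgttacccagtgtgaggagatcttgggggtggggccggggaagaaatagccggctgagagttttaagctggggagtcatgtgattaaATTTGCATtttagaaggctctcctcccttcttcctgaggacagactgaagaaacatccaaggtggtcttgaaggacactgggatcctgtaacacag
The second window lies at chr1:110872898-110873197 and holds GAGGAA 2 times, once on each strand.
CD53 second window: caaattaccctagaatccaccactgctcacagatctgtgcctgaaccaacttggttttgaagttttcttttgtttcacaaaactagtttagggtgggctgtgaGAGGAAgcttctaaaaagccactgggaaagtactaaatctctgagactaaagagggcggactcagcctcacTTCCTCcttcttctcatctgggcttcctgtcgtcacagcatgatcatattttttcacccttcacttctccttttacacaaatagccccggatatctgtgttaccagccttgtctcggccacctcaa
Among all 35116 windows of the table, ATGCAAAT occurred in 1.77%, CAGGTG in 20.6%, GAGGAA in 27.9% and CCGGAA in 17.2%. The RUNX letters TGTGGT and TGCGGT, found in 13.1% and 7.29% of all windows, matched 1 of the 15 windows of these 4 members, CD37 not among them. That window belongs to CD9, lies at chr12:6200150-6200449 on the plus strand, and carries TGCGGT in reverse, shown in capitals.
CD9 window: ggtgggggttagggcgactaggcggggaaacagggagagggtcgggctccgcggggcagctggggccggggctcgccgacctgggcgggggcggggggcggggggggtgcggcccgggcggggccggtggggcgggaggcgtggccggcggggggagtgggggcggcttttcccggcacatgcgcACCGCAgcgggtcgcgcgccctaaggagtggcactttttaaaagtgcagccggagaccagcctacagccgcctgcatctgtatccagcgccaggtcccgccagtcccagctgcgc
A match of letters is a description of the sequence and does not show binding.

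CD9, a marker of precursor B cells, was lower in the RUNX1-labelled library. CD9 (ENSG00000010278; chromosome 12, 6308881 to 6347437, plus strand) went from 66506 UMIs, or 878 CPM, to 34671 UMIs, or 460 CPM, a log2 ratio of -0.93 (-0.95 to -0.91). It fell just short of 2-fold lower as summed, and was past it when each cell was weighted equally (-1.07) and, by a small margin, when all cells were thinned to the same depth. Counts of 3' ends give 1 UMI per captured molecule and are not scaled by gene length, so the levels of different genes are set side by side here only as shares of one sum. Of the UMIs of all 33 tetraspanins, CD9 took 46.2% in the control and 25.3% in the RUNX1-labelled library.

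CD63 showed the opposite direction and was just past 2-fold. CD63 (ENSG00000135404; chromosome 12, 56119107 to 56123491, minus strand) had 12906 UMIs, or 170 CPM, in the control and 26658 UMIs, or 354 CPM, in the RUNX1-labelled library, a log2 ratio of 1.05 (1.02 to 1.08). Its share of tetraspanin UMIs went from 8.96% to 19.4%, and that of CD37 from 0.0278% to 1.26%.

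CD82 and CD151 were less than 2-fold apart between the libraries as summed. CD82 (ENSG00000085117; chromosome 11, 44585977 to 44641908, plus strand) was at 2.59 CPM (196 UMIs) and 4.30 CPM (324 UMIs), under 10 CPM in both, with a log2 ratio of 0.73 (0.47 to 1.00). Over the alternative settings its ratio ran from 0.46 to 1.48. It was past 2-fold as a mean over cells (1.08) and with under 10% mitochondrial UMIs (1.48). CD151 (ENSG00000177697; chromosome 11, 832887 to 839831, plus strand) was at 22.7 CPM (1718 UMIs) and 24.2 CPM (1827 UMIs). Its log2 ratio of 0.10 (0.0006 to 0.19) turned to -0.03 with TMM factors, a scaling that discounts the most extreme genes, so no direction is given for it. POLR2L, which overlaps CD151 on the opposite strand, was at 441 and 181 CPM.

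Of the 5 members at 10 CPM, CD37 and CD63 were at least 2-fold higher in the RUNX1-labelled library and 0 were at least 2-fold lower. Over all 7980 such genes, 5.18% were 2-fold or more higher and 4.1% were 2-fold or more lower, and the median log2 ratio was -0.13. With TMM factors these shares were 4.34% and 6.24%, CD63 at 0.93 left the higher side (as it did at 0.97 without cells under 8000 UMIs), and CD9 at -1.06 joined the lower side. With mitochondrial and ribosomal protein genes taken out of the totals, the shares were 7.57% and 1.90%.

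The rest of the family included 6 further genes at 10 CPM. CD81, a widely expressed tetraspanin, was at 445 and 569 CPM in the control and the RUNX1-labelled library (log2 ratio 0.35). TSPAN31 was at 11.3 and 19.3 CPM (0.77). TSPAN14 and TSPAN33 belong to the TspanC8 group, which escorts the protease ADAM10. TSPAN14 was at 74.5 and 38.2 CPM (-0.96) and TSPAN33 at 18.7 and 14.1 CPM (-0.40). TSPAN3 had a log2 ratio of -0.31 and TSPAN13 of -0.06. Over all 11 family members at 10 CPM the median was 0.10, and summed over the 33 genes the family came to 1902 CPM in control cells and to 1822 CPM in the RUNX1-labelled library. The summed level was thus nearly equal while its makeup differed. For 6 family genes there was no UMI in either library.

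**Figure D1:**
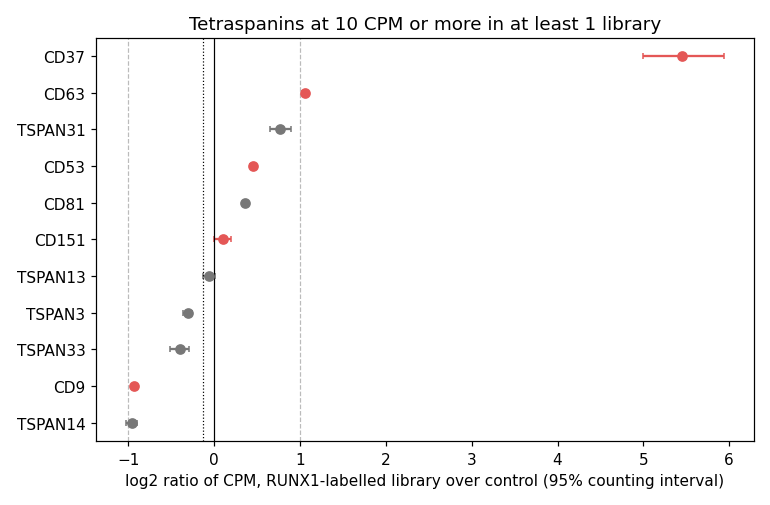
Log2 ratio of CPM (horizontal axis, RUNX1-labelled library over control, bars are 95% counting intervals) for the 11 tetraspanins at 10 CPM or more in either library. Red marks the described members and grey the others, dashed lines mark 2-fold and the dotted line the median of all genes at -0.13. CD37 stands apart at 5.44, and CD9 and TSPAN14 lie lowest.

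Cell cycle phase was called from S and G2/M gene lists on cells thinned to 8000 UMIs, and cells with neither programme are called G1. Of the thinned control cells 7.73% were called G1 (401 of 5185), against 56.2% in the RUNX1-labelled library (2353 of 4188). A ratio between whole libraries therefore compares different mixtures of phases. Levels by phase were taken from all UMIs of the called cells.

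Within the RUNX1-labelled library, CD37 was concentrated in G1 cells. It was at 33.4 CPM in G1 (1099 UMIs), 3.53 CPM in S (73 UMIs) and 4.71 CPM in G2/M (84 UMIs), and S and G2/M did not differ beyond counting error. The CD37 level of G1 cells was thus 8.20-fold that of S and G2/M cells together (log2 ratio 3.04, 2.79 to 3.29). In the control CD37 was at 0.892 CPM in G1 (4 UMIs) and 0.512 CPM in cycling cells (35 UMIs), with an interval of the log2 ratio from -1.15 to 2.28. At this depth no difference between the phases of the control was detectable.

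CD53 and CD63 had the same direction as CD37 with much smaller ratios. CD53 was at 219 CPM in G1 and 125 CPM in cycling cells of the RUNX1-labelled library (log2 ratio 0.81, 0.76 to 0.87), and at 178 and 124 CPM in the control (0.53, 0.42 to 0.63). CD63 was at 396 and 278 CPM (0.51, 0.47 to 0.55) in the RUNX1-labelled library and at 193 and 168 CPM (0.20, 0.10 to 0.30) in the control. For both genes the control showed the same order of phases.

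CD9 was lower in G1 cells of the RUNX1-labelled library. There it was at 340 CPM in G1, 550 CPM in S and 602 CPM in G2/M, a log2 ratio of G1 over cycling of -0.76 (-0.79 to -0.72). Control cells were at 848, 825 and 934 CPM in the same phases, with a log2 ratio of -0.04 (-0.09 to 0.008). CD81 also was lower in G1, with log2 ratios of -0.52 and -0.37 in the RUNX1-labelled library and the control. CD82 had log2 ratios of -0.20 (-0.56 to 0.17) and -0.02 (-1.05 to 0.86), which changed sign in some of the alternatives. CD151 was level between phases in the RUNX1-labelled library, at 23.5 CPM in both, and at 16.3 CPM in G1 against 23.1 CPM in cycling cells of the control.

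Of the 5 members at 10 CPM in the RUNX1-labelled library, 1 (CD37) was at least 2-fold higher in G1 than in cycling cells and 0 were at least 2-fold lower. Over 7968 genes, 4.39% were 2-fold or more higher in G1 and 6.1% were 2-fold or more lower.

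**Figure D2:**
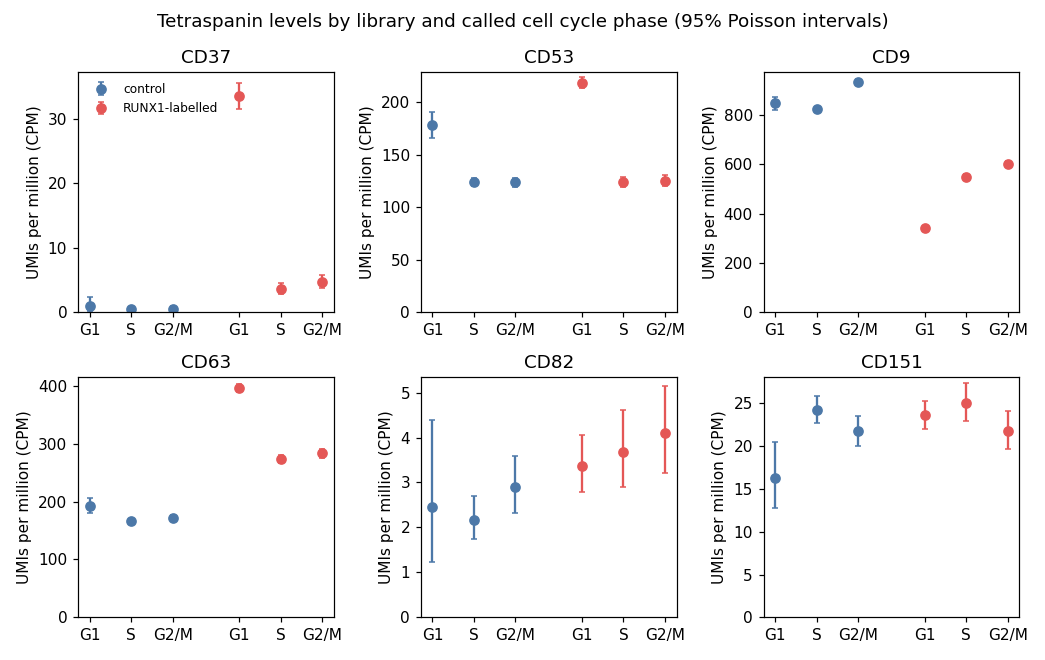
CPM (vertical axes, from 0, a different range for each gene) of the 6 members in cells called G1, S and G2/M, control in blue and RUNX1-labelled library in red, with 95% Poisson intervals. CD37 is high only in G1 cells of the RUNX1-labelled library among these 6 groups, CD9 is lowest there, and CD53 in S and G2/M cells is at 124 to 125 CPM in both libraries.

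Comparing the libraries within a phase separated the members further. In cycling cells CD53 did not differ between the libraries beyond counting error, at 124 and 125 CPM (log2 ratio 0.007, -0.04 to 0.06), and the same holds for CD151 (0.02, -0.10 to 0.14). Within G1 both were higher in the RUNX1-labelled library, CD53 with a log2 ratio of 0.29 (0.19 to 0.40) and CD151 with 0.53 (0.18 to 0.90). Cells called G1 were not alike between the libraries, however. MKI67 was at 179 CPM in cycling and 15.2 CPM in G1 cells of the control. In the RUNX1-labelled library it was at 165 and 4.50 CPM. The part of this in the G1 ratios was not tested. CD63 remained higher in the RUNX1-labelled library within G1 (log2 ratio 1.04, 0.94 to 1.14) and within cycling cells (0.72, 0.68 to 0.76). CD9 was lower in both, by more in G1 (-1.32, -1.37 to -1.26) than in cycling cells (-0.60, -0.62 to -0.58). CD37 was 37.5-fold higher within G1 (log2 ratio 5.23, 3.87 to 7.11, on 4 control UMIs) and 7.96-fold higher within cycling cells (log2 ratio 2.99, 2.46 to 3.57). Of all genes, 7.84% were 2-fold or more higher in the RUNX1-labelled library within G1 and 1.65% within cycling cells. The shares 2-fold or more lower were 6.02% and 1.51%.

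The CD37 UMIs of cycling cells need a background to be read, and neither library holds a cell type that should lack CD37. Cycling cells of the RUNX1-labelled library held 12.2% (10.3 to 14.4) of the G1 level of CD37. Other genes of G1 cells, chosen after their values were seen, kept 9.76% (FCER1G), 16.3% (CCL3), 11.6% (CCL4), 16.3% (ITGB7), 6.38% (MS4A1) and 9.13% (FBXO32). The intervals of MS4A1 (4.81 to 8.32), CCL3 (14.49 to 18.34) and ITGB7 (14.7 to 18.1) did not overlap that of CD37. Whether these UMIs came from free RNA, from cells called in the wrong phase or from the cycling cells themselves was not tested.

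Ordering the cells by the share of their UMIs in S and G2/M genes, with no phase call, placed the drop of CD37 in a narrow stretch. The cells of each library were cut into 10 equal bins, from the lowest share in bin 1 to the highest in bin 10. In the RUNX1-labelled library, bins 1 to 5 had 44.3 to 53.5 CPM of CD37, bin 6 had 28.8 CPM, and bins 7 to 10 had 3.19 to 5.83 CPM. CD63 followed the same course, from 440 CPM in bin 1 and 471 CPM in bin 5 to 299.6 CPM in bin 7 and 272 CPM in bin 10. CD53 descended more evenly, from 255 to 119 CPM. CD9 took the mirror course, with 310 to 337 CPM in bins 1 to 5 and 618 CPM in bin 10.

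Control cells showed little of this. CD37 was at 0.292 to 0.843 CPM in all 10 bins of the control, on 2 to 6 UMIs each. CD53 was at 171 CPM in bin 1 and 117 CPM in bin 10, and CD63 at 189 and 172 CPM. The control bins cover another range, since bin 1 of the control had a median share of cell cycle UMIs of 0.337%, between those of bin 6 (0.267%) and bin 7 (0.527%) of the RUNX1-labelled library. Cells of bin 10 also held more RNA, with a median of 23085 UMIs against 11247 in bin 1 of the RUNX1-labelled library. Where CD37 dropped in that library, the median went from 10824 UMIs in bin 5 and 12213 in bin 6 to 17208 in bin 7. The part of RNA content in the drop was not tested.

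**Figure D3:**
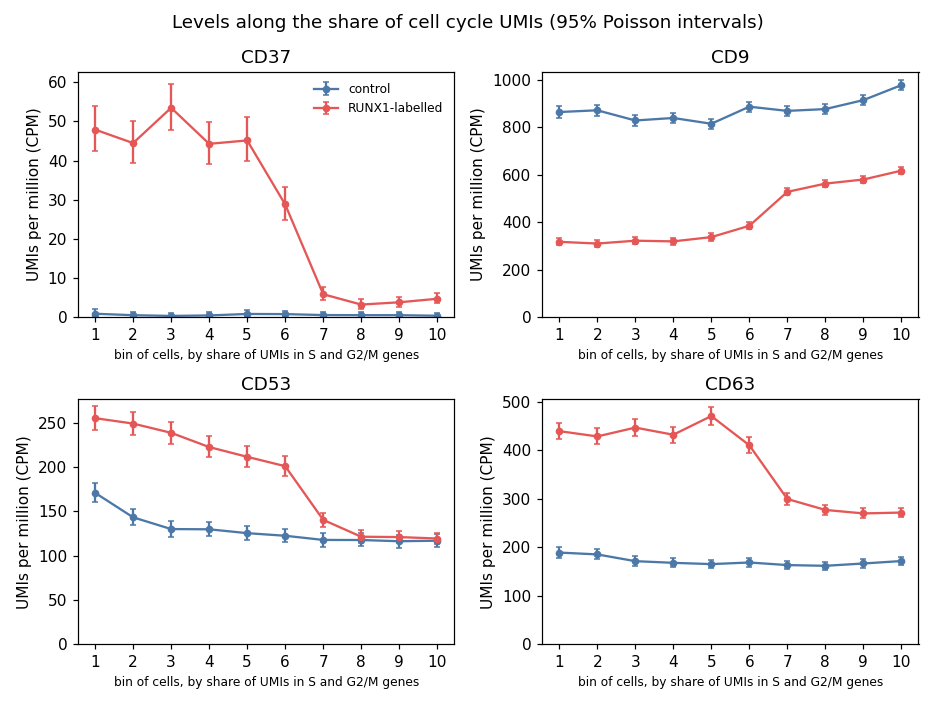
CPM (vertical axes, from 0) of CD37, CD9, CD53 and CD63 in 10 bins of the passing cells of each library, ordered within the library by the share of UMIs in S and G2/M genes (horizontal axis), with 95% Poisson intervals. In the RUNX1-labelled library (red) the CD37 level steps from 45.1 CPM in bin 5 to 5.83 CPM in bin 7 while CD9 climbs, and the control (blue) stays near 0 for CD37.

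CD37 varied with the RNA content of a cell even among G1 cells. The thinning left out 612 cells of the RUNX1-labelled library with fewer than 8000 UMIs, of which 96.7% were called G1 on all UMIs, and these held 477 of the 1733 CD37 UMIs, a level of 120 CPM (109 to 131). The 413 control cells under 8000 UMIs held 1 CD37 UMI. Barcodes that the filter removed for having 2000 genes or fewer were at 81.6 CPM of CD37 in the RUNX1-labelled library and at 0 of 1368965 UMIs in the control, a count of 0 that allows up to 3 UMIs.

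The G1 cells of the RUNX1-labelled library, called on all UMIs, were cut into 5 equal bins by their total UMIs. CD37 was at 121 CPM in the bin with a median of 6572 UMIs per cell. It was then at 77.6, 45.8 and 23.7 CPM and lastly at 14.3 CPM in the bin with a median of 19067 UMIs. Fewer total UMIs enlarge a gene's share when its own count is constant, but the count differed as well, from 0.785 CD37 UMIs per cell in the smallest cells to 0.292 in the largest. CD82 went in the same direction, from 15.2 to 1.85 CPM and from 0.0988 to 0.0375 UMIs per cell.

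CD63 was at 756 CPM in the smallest and 332 CPM in the largest G1 cells, yet its UMIs per cell went from 4.90 to 6.76, so its share differed more than its count. CD53 went from 292 to 199 CPM with 1.89 to 4.05 UMIs per cell. CD9 stayed between 306 and 359 CPM, and CD151 was at 36.8 CPM in the smallest and 21.6 to 29.4 CPM in the other bins. The phases also differed between bins of like depth. The G1 bin with a median of 19067 UMIs had 14.3 CPM of CD37 and 359 CPM of CD9, and the cycling bin with a median of 20230 UMIs had 2.78 CPM and 565 CPM. For CD53 the same bins were at 199 and 124 CPM, and for CD63 at 332 and 277 CPM. At lower depth the ratio of CD37 between the phases was smaller. The G1 bin with a median of 14414 UMIs had 23.7 CPM of CD37, and the cycling bin with a median of 13581.5 UMIs had 9.67 CPM. CD37 also differed with RNA content among cycling cells, from 9.67 CPM in the smallest to 3.39 CPM in the largest. The median mitochondrial share of the G1 bins went from 11.9% in the smallest cells to 14.6% in the largest. Its part in the CD37 level was not tested.

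**Figure D4:**
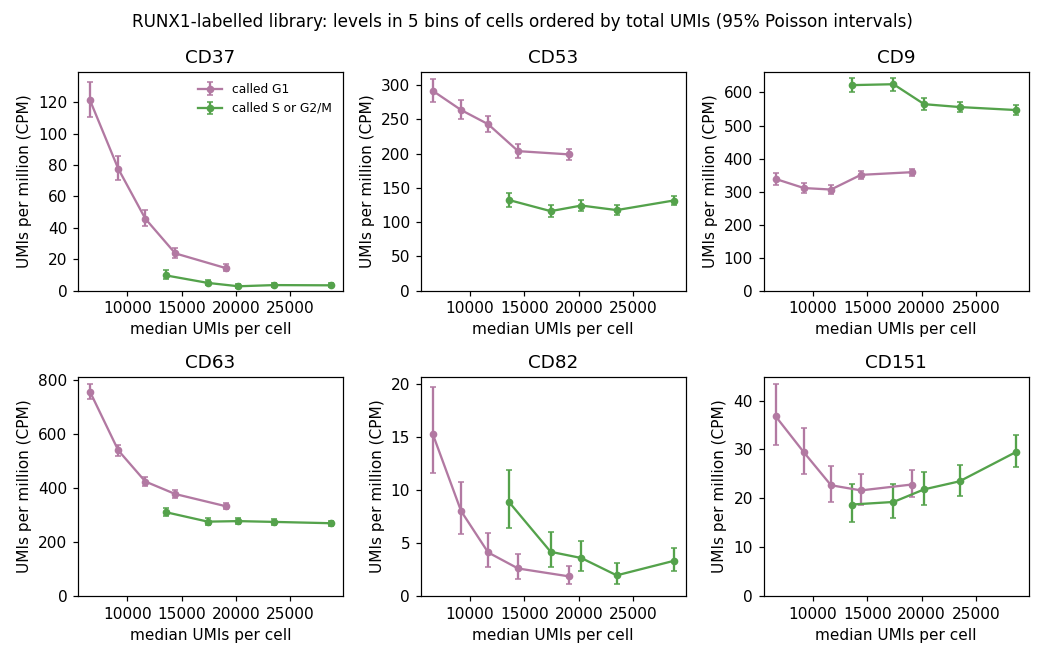
CPM (vertical axes, from 0) of the 6 members in 5 bins of the cells of the RUNX1-labelled library, ordered by total UMIs (horizontal axis, median UMIs per cell of the bin), for cells called G1 (purple) and S or G2/M (green) on all UMIs, with 95% Poisson intervals. CD37 and CD82 in G1 cells drop steeply with RNA content, from 121 to 14.3 CPM and from 15.2 to 1.85 CPM, while CD9 lies higher in every S or G2/M bin than in any G1 bin.

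Few cells carried a CD37 UMI at any one depth. At 8000 UMIs per cell, at least 1 was found in 0.444% of control cells (exact interval 0.281 to 0.665) and in 14.2% of cells of the RUNX1-labelled library (13.2 to 15.3), against 0.643% and 22.5% with all UMIs of all passing cells. The share was 22.9% in G1 cells of the RUNX1-labelled library and 3.16% in its cycling cells. Of the 2353 G1 cells, 1815 had 0 CD37 UMIs, 381 had 1, 154 had 2 to 4 and 3 had 5 or more, with a highest count of 6. The variance of these counts was 1.47 times their mean, where pure counting error would give 1.

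CD9, CD53 and CD63 were seen in most cells of both libraries. CD9 was found in 99.1% of control cells and 89.9% of cells of the RUNX1-labelled library, and its variance was 1.96 and 2.41 times its mean. CD53 was found in 61.8% and 72.1%, CD63 in 73.5% and 91.7%, CD151 in 15.9% and 17.0%, and CD82 in 2.03% and 3.10%. CD53 was seen in 61.0% of cycling cells in either library. It was seen in 70.6% of G1 cells of the control and 80.7% of those of the RUNX1-labelled library.

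Among G1 cells of the RUNX1-labelled library, all thinned to one depth, the 538 cells with a CD37 UMI were compared with the 1815 without, as a description of cells of 1 library. CD63 was at 503 CPM with and 395 CPM without (log2 ratio 0.35, 0.28 to 0.42). CD53 was at 246 and 218 CPM (0.17, 0.07 to 0.27) and CD9 at 312 and 343 CPM (-0.14, -0.23 to -0.05). CD82 had 34 UMIs in the cells with CD37 and 40 in those without, or 7.90 and 2.75 CPM (1.52, 0.82 to 2.22). CD151, at 25.8 and 24.9 CPM, did not differ beyond counting error. For CD82, CD63 and CD53 this order of sizes was also that of the change along the bins of RNA content. CD151 did not keep to it. From the smallest to the largest G1 cells it went from 36.8 to 22.8 CPM, a larger change than that of CD53.

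G1 cells of the RUNX1-labelled library were further divided by the UMIs of genes that were near 0 in the control. Cells with a C1orf141 or LINC00967 UMI (231 cells) had 49.8 CPM of CD37, remaining cells with CCL3 or CCL4 (809 cells) 68.0 CPM, remaining cells with FCER1G (458 cells) 43.9 CPM, and cells with none of these (855 cells) 9.06 CPM. CD9 was at 229, 300, 297 and 419 CPM in the same order, highest in the cells with the least CD37. CD63 was at 652, 462, 415 and 320 CPM, so the C1orf141 or LINC00967 cells had the most CD63 and the CCL3 or CCL4 cells the most CD37. All were thinned to 8000 UMIs.

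The 5 genes whose levels over the 6 groups of cells (2 libraries by G1, S and G2/M) lay closest to CD37 were FBXO32, CMTM3, PTCRA, SLAMF1 and PTPN22. The measure was the Euclidean distance of mean-centred log2(CPM + 1), from 0.18 for FBXO32 to 0.54 for PTPN22. Adding 1 CPM shrinks differences near 0, so genes with unlike ratios between libraries can lie close. That log2 ratio was 10.16 for FBXO32, on 1 control UMI, and 3.82 for PTPN22, against 5.44 for CD37. FBXO32, a ubiquitin ligase component, was at 22.2 CPM in G1 and 1.69 CPM in S cells of the RUNX1-labelled library and at 0 in control S and G2/M cells. PTCRA, the pre-T-cell receptor alpha chain, was at 226 CPM in G1 and 41.1 CPM in S cells of the RUNX1-labelled library, against 17.4 CPM in control G1 cells. PTPN22, a lymphocyte phosphatase, was at 57.3 and 8.28 CPM, against 2.90 CPM. SLAMF1, a lymphocyte receptor, was at 18.7 CPM and CMTM3 at 25.4 CPM in those G1 cells.

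Genes known to work with tetraspanins were read from lists by role. Of 10 genes of B-cell complexes that hold CD81, CD37, CD53 or CD82, 7 reached 10 CPM, of which 1 was 2-fold or more higher and 0 were as much lower. The 1 was MS4A1, which encodes CD20. HLA-DPB1 and HLA-DPA1, chains of an MHC class II molecule, had log2 ratios of 0.99 and 0.66. CR2, a complement receptor of mature B cells, had 0 UMIs in both libraries.

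Of 11 integrins and EWI proteins (immunoglobulin-type partners of CD9 and CD81), 6 reached 10 CPM, with 1 at least 2-fold higher, 1 at least 2-fold lower and a median of 0.11. ITGB7, the beta 7 integrin chain, had 19 UMIs in the control and 3317 in the RUNX1-labelled library. ITGA4, the alpha 4 chain that pairs with it or with the beta 1 chain and is a partner of CD37, was at 43.2 and 20.9 CPM (-1.05, -1.14 to -0.96). ITGA5 had a log2 ratio of 0.65 and ITGA6, a laminin receptor chain bound by CD151, 0.13. The adhesion receptor CD44 stayed under 10 CPM, with 3 UMIs in the control and 677 in the RUNX1-labelled library, a log2 ratio of 7.83 (6.27 to 10.11).

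Of 10 genes listed for the TspanC8 group, ADAM10 and its substrates, 3 reached 10 CPM, and 0 were past 2-fold in either direction. ADAM10 was at 33.5 and 43.4 CPM (0.37), while its escorts TSPAN14 and TSPAN33 were lower, as given above. Under 10 CPM, FCER2, a substrate of ADAM10, had 35 and 200 UMIs (2.52, 2.00 to 3.08) and the receptor NOTCH1 had 221 and 103 UMIs (-1.09, -1.45 to -0.75).

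Of 11 signalling genes linked to CD37 and CD53, 7 reached 10 CPM, 1 was at least 2-fold higher and 0 lower, with a median of -0.13. PTPN6, the phosphatase SHP-1 that docks on CD37, was at 88.4 and 254 CPM (1.52, 1.48 to 1.56). IL7R, the interleukin 7 receptor that CD53 assists in B-cell precursors, was at 253 and 133 CPM (-0.93, -0.96 to -0.89). PIK3R1 and PIK3CG, subunits of PI3 kinases, had log2 ratios of -0.84 and -0.40. PRKCB, a protein kinase C, was under 10 CPM with 11 and 323 UMIs (4.88, 4.03 to 5.90).

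Of 12 genes of CD63 sorting, 11 reached 10 CPM, with a median of -0.14, 1 at least 2-fold higher and 0 lower. The 1 was SDCBP, which encodes syntenin, the adaptor that binds the CD63 tail, at 53.9 and 109 CPM (1.01, 0.96 to 1.07). VPS4A and TSG101, of the ESCRT machinery that buds vesicles, had log2 ratios of -0.59 and 0.42, and AP3M1, a subunit of the adaptor that carries CD63 to lysosomes, -0.33. TIMP1, a secreted ligand of CD63, was under 10 CPM, at 1.77 and 7.70 CPM. Among genes at 10 CPM, each of these lists held at most 1 gene past 2-fold on a side, beside the background of 5.18% and 4.1%. Under 10 CPM more listed genes were past 2-fold, CD44, FCER2, PRKCB and TIMP1 among the higher and NOTCH1 among the lower.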

How the data were processed

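Single-cell RNA-seq of 2 Nalm-6 libraries was used; the 10 ChIP-seq samples were not analysed here. The authors deposited raw UMI counts per gene and cell, made with Cell Ranger 3.0.2 on hg19 and mm10 from lanes shared with mouse cells, and kept barcodes called human. Cells with more than 2000 and fewer than 6000 genes and under 20% mitochondrial UMIs were kept. The filter removed 475 barcodes of the control and 691 of the RUNX1-labelled library, and doublets were not removed.

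UMIs were summed over cells and scaled to CPM, with no pseudocount in ratios. Intervals are exact (Poisson for CPM, conditional binomial for ratios, Clopper-Pearson for shares, 95%). Phases came from scanpy 1.11.5 on both libraries together, thinned to 8000 UMIs, with 42 S and 54 G2/M genes found. TMM factors came from edgeR 4.0.16. Positions are from GENCODE v44lift37. The ratio code was tested on simulated counts. Whether counting used strand is not given in the sources used here.

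Named genes are the members, family genes at 10 CPM, up to 4 genes of largest ratio per list and the 5 nearest CD37. CR2, CD44, TIMP1, FCER2, NOTCH1 and PRKCB, all under 10 CPM, were named after their values were seen. Members and lists were chosen with earlier results of these data known. Bins by RNA content and shares of the G1 level were added after seeing the data. The values of 1 listed gene are not reported here.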

Additional observations from a re-analysis of the deposited data

How the results depend on the processing

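The CD37 log2 ratio of 5.44 between libraries ranged from 2.99 to 6.61 and was above 0 in all 11 alternatives. It was 6.13 as a mean over cells, 6.61 with under 10% mitochondrial UMIs (which left 12.5% of cells of the RUNX1-labelled library and 65.2% of control cells), 2.99 in S or G2/M cells and 5.04 without cells under 8000 UMIs, an alternative added after seeing the data. The G1 ratio of 3.04 was 3.30 with phases called on all UMIs and 3.59 between the cells with the lowest and highest shares of cell cycle UMIs. The 2 members at least 2-fold higher became 1 with TMM factors or without cells under 8000 UMIs and 0 in S or G2/M cells, where CD37 was 7.96-fold higher but under 10 CPM in both libraries and so not counted. The shares of all genes 2-fold or more higher in these 3 settings were 4.34%, 4.17% and 1.65%. The 0 members at least 2-fold lower became 1, CD9, with TMM factors, as a mean over cells, after thinning and in G1 cells. Of all genes, 6.24%, 6.37%, 5.37% and 6.02% were 2-fold or more lower in the same order of settings. CD151 turned from 0.096 to -0.031 with TMM factors. The share of cells with a CD37 UMI in the RUNX1-labelled library was 14.2% thinned and 22.5% unthinned. TMM factors moved the median of all genes from -0.13 to -0.26; relative to that median, CD37 was at 5.57, CD63 at 1.18 and CD9 at -0.80 with either scaling. With a floor of 1 CPM, 12.6% of genes were 2-fold or more higher and 3.93% as much lower, and all 5 genes nearest CD37 were shared. Of 165 alternative values, 91 stayed within the counting interval or count limit. The causes were not tested beyond what the settings change by construction. No paired analysis was possible because each group was 1 library and no test was made. Depth limits CD37 in control G1 cells (4 UMIs) and CD82 throughout.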
